A study of Homo sapiens with 8 samples.

Results

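The genes examined were 10 genes of the actin cytoskeleton that are classed with serum response factor, namely SRF itself, ACTA2, ACTB, TAGLN, CNN1, TPM1, TPM2, TPM4, VCL and FLNA. They were found by taking every non-control probe whose RefSeq accession belonged to one of these symbols, which gave 17 of the 42405 probes on the array and 10 of the 19483 genes named there. The samples were cultures of U87, a cell line from a human glioblastoma, which had been reverse transfected with an siRNA to RND3 (siRND3) or a non-silencing siRNA (siControl) and read on Agilent 1-colour arrays. There were 3 siControl and 3 siRND3 arrays at 24 h, and a single array of each kind at 48 h. No genotype differed between the groups, and both carried siRNA and the same transfection reagent. A pair of siRNA oligos against RND3 is named in the methods, without saying which array received which, and the labels do not say whether replicates were separate transfections, so p-values measure only the spread between these arrays.

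SRF is a transcription factor that binds a short DNA element called the CArG box. When monomeric actin is used up by filament assembly, its partner proteins of the myocardin-related family (MRTFA and MRTFB) are released, enter the nucleus and join SRF at genes for actin, its binding proteins and its adhesion sites. A second class of partners, the ternary complex factors ELK1, ELK3 and ELK4, directs SRF to immediate early genes such as FOS and EGR1. In smooth muscle, ACTA2, TAGLN and CNN1 are well-known markers of the contractile state.

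To show which of the 10 genes hold a CArG box next to their start, the RefSeq promoter windows of assembly GRCh38.p14 were read. Each window covers 250 bases before and 50 after an annotated start. Windows were found for 8 of the 10 genes (13 windows), and ACTB and TAGLN had none. The CArG box, an element of 10 bases whose pattern is the same on both strands, was read as an exact match. It was found in 3 of the 13 windows, those of SRF, TPM4 and FLNA. Among all windows 454 of 35116 (1.29%) held it. Stretches with 1 mismatch to the pattern were not counted as boxes. An ACTA2 window (chr10:88952724-88953023) held 2 of them, the SRF window with boxes held 1, and each TPM4 window without a box held 1. No share over all windows is given for such stretches. The bases before the start are printed 5′ to 3′ on the strand of the gene, with the CArG boxes in capitals. SRF (chr6:43171019-43171268, plus strand) held 2 boxes, which began 30 and 10 bases before the start. The boxes of TPM4 (chr19:16067340-16067399, plus strand) and FLNA (chrX:154374694-154374753, minus strand) began 173 and 94 bases before the start, and 60 bases around each are shown. VCL (chr10:73997866-73998115, plus strand) and TPM1 (chr15:63048239-63048488, plus strand) are shown because they were the genes whose signal changed at 24 h, and neither window held the element. This says only that these letters are not in the window.
SRF: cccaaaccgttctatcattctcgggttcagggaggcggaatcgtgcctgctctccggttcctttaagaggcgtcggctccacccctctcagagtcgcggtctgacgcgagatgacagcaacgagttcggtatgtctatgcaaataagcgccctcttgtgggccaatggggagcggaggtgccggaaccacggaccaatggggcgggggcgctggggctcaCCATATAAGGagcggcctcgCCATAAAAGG
TPM4: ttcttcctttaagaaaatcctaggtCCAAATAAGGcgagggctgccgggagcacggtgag
FLNA: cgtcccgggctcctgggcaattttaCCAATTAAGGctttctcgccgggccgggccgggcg
VCL: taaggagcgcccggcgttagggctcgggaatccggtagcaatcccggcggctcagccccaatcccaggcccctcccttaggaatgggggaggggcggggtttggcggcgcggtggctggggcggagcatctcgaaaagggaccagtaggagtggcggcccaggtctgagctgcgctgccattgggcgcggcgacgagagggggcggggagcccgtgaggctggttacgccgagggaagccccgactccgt
TPM1: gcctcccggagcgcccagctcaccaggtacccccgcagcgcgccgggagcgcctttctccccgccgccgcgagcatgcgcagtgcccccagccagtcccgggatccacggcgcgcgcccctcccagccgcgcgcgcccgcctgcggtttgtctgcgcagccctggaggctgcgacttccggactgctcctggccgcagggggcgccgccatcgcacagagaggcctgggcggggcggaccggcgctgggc

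All 17 probes were detected on all 8 arrays, meaning that the scanner software marked them as well above background, so every gene could be tested. Values are log2 signals after quantile normalisation, and a difference is siRND3 minus siControl on that scale. A log2 signal belongs to its own probe. Levels of different probes were used only to pick the brightest probe of a gene and in summed marker signals. Across the array 28759 probes were tested at 24 h with limma, and a probe was called at a Benjamini-Hochberg adjusted p under 0.05.

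The knockdown and the cells were checked first. The RND3 probe read 11.88, 11.91 and 11.90 on the siControl arrays and 10.12, 10.18 and 10.42 on the siRND3 arrays at 24 h, which left 31.7% of the control signal (difference -1.66, adjusted p = 0.000345). At 48 h 31.9% was left. Each array detected 68.3% to 70.7% of its probes above background. On the slide, row 1 held the 4 siRND3 arrays and row 2 the 4 siControl arrays, and the effects of row and knockdown cannot be told apart. Of 7 astroglial and glioma markers, VIM, NES and SLC1A3 were measured, whereas no array detected GFAP or SOX2. Since ACTA2, TAGLN and CNN1 are also smooth muscle genes, 6 further markers of smooth muscle and pericytes were read. No array detected their defining members MYH11 and MYOCD, and none of the 4 tested passed at 24 h. The summed linear signal of those 4 ran from 2696 to 2944 on the siControl arrays and from 2719 to 3297 on the siRND3 arrays at 24 h. Of 3 neuronal markers SNAP25 and SYT1 fell (-0.42 and -0.49) and RBFOX3 was not detected. SYT1 passed on 1 of 2 tested probes, and the other had 0.10. The summed signal was 1907 to 1989 in siControl and 1360 to 1521 in siRND3 cells. It was mostly SNAP25, which read 10.85 on the log2 scale in siControl cells, where SYT1 read 6.74. Of 3 endothelial markers PECAM1 fell (-0.99, on 1 of 2 tested probes), with sums of 254 to 283 and 257 to 285. Of 3 blood markers PTPRC and CD68 were tested and neither passed. Their summed signal did not overlap (4664 to 4992 in siControl and 5174 to 6141 in siRND3 cells). That sum was mostly CD68, which read 12.22 on the log2 scale in siControl cells, where PTPRC read 5.41. NES rose by 0.41, on 1 of 2 probes, and SLC1A3 fell by 0.34 among the astroglial markers. The part of these shifts in the results on the 10 genes was not tested.

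At 24 h, VCL and TPM1 were lower in siRND3 cells and the other 8 genes did not pass the test. VCL, which encodes the focal adhesion protein vinculin, fell to 44.0% of its control signal, and TPM1, which encodes a tropomyosin that coats actin filaments, fell to 67.7%. In total 4 of the 17 probes were called lower, 1 for VCL and 3 for TPM1, where 6.38% of all probes tested were called lower. None of the 17 was called higher, where 5.27% of all probes were. By genes, 2 of 10 fell, against 9.26% of all 14805 genes tested. The median difference over the 10 genes, with the brightest probe of each, was -0.07. Over all genes tested, taken in the same way, it was 0.04, and over all probes tested it was 0.05. The 3 arrays of each group did not overlap for 7 of the 17 probes, where 34.4% of all probes did not overlap. With unadjusted p-values, 6 of the 17 probes were under 0.05, as were 28.0% of all probes tested. An exact permutation test of 3 arrays against 3 cannot go below p = 0.1, so single-probe values rest on limma, which shares the spread over probes. The count of 4 probes fell to 1, that of VCL, without replicate 1 or without replicate 3 of siControl.

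**Figure D1:**
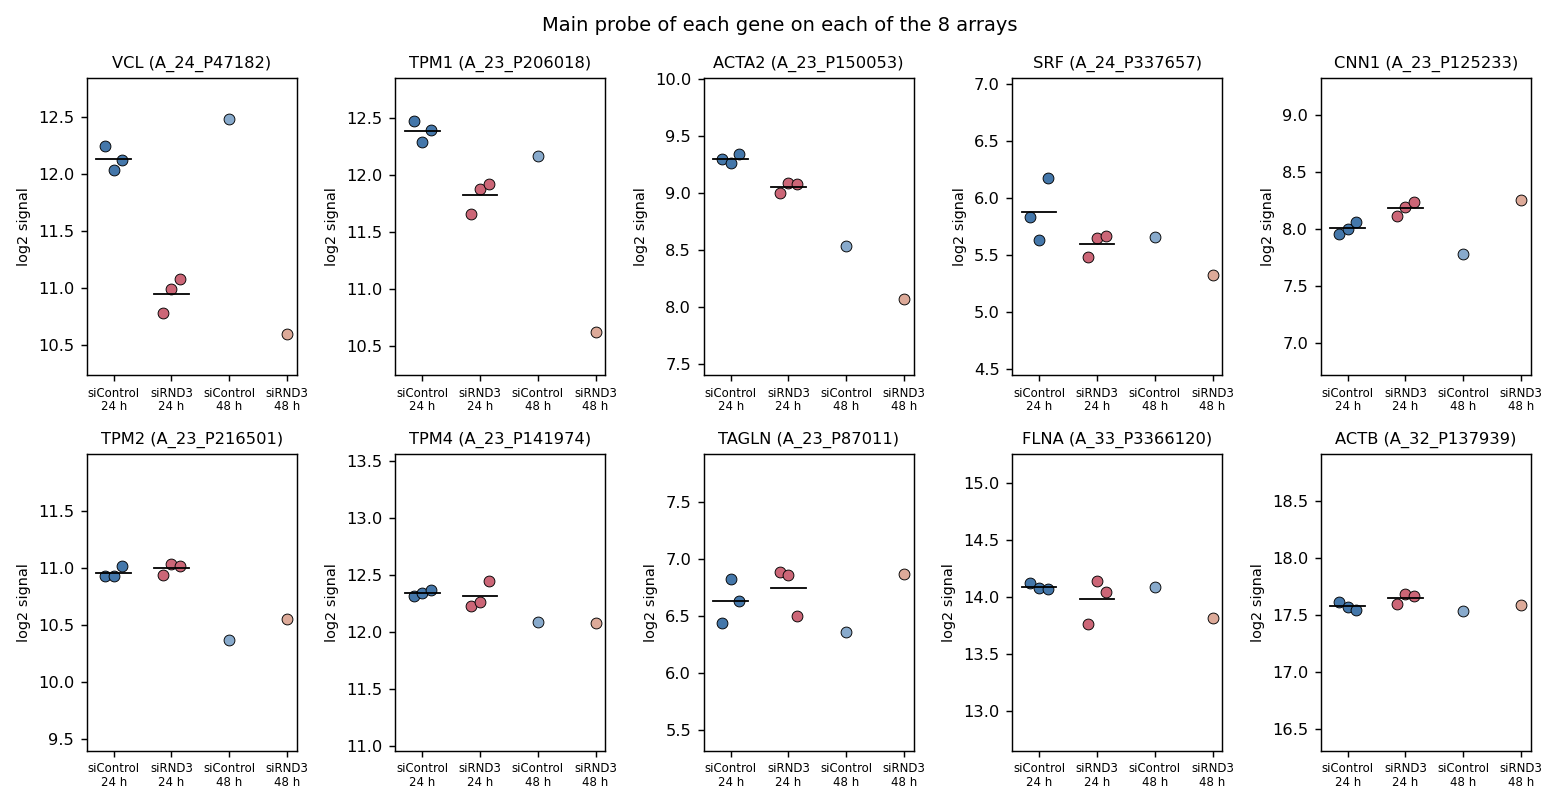
Log2 signal of the main probe (the brightest tested probe) of each of the 10 genes on each of the 8 arrays, by treatment and time. Points are arrays, black lines are means of 3 arrays, and every panel spans the same number of log2 units. The VCL arrays read 12.04 to 12.24 in siControl and 10.78 to 11.08 in siRND3 cells at 24 h, whereas the ACTB and TPM2 groups overlapped.

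VCL links talin and alpha-catenin to actin filaments at adhesion sites. Its only probe (A_24_P47182) read 12.24, 12.04 and 12.12 in siControl cells and 10.78, 10.99 and 11.08 in siRND3 cells at 24 h. The groups did not overlap (12.13 ± 0.10 and 10.95 ± 0.16, SD, n = 3). The difference was -1.18 (SE 0.106, limma adjusted p = 0.00138, 95% interval -1.44 to -0.93), or 2.27-fold lower, and it ranked 322 from the lowest of the 28759 probes. At 48 h the siControl array read 12.48 and the siRND3 array 10.59, which was 27.1% of the control signal. VCL was called lower at 24 h with each of the 6 arrays left out, where its difference ran from -1.25 to -1.10.

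Tropomyosins lie along the actin filament and set which other proteins can bind it, and TPM1 was the tropomyosin gene that fell. Its 3 probes were annotated to 3 transcripts (NM_001018004, NM_001018005 and NM_000366). The main probe (A_23_P206018) read 12.47, 12.29 and 12.40 in siControl and 11.66, 11.88 and 11.92 in siRND3 cells at 24 h. Every siRND3 array was below every siControl array, as was also the case for the other 2 probes. The differences were -0.56 (SE 0.0990, adjusted p = 0.0169), -0.43 (SE 0.0959, adjusted p = 0.0351) and -0.55 (SE 0.0954, adjusted p = 0.0160) in the order of the transcripts. The 3 probes read the same RNA extracts and are not separate replicates. Without replicate 1 or replicate 3 of siControl none of them passed (lowest adjusted p = 0.0651 and 0.0695), while all 3 kept their direction. The probe for NM_001018005 lost its call with any of the 6 arrays left out.

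TPM2 and TPM4 encode further tropomyosins, and each had 2 probes. The main TPM2 probe read 10.93, 10.93 and 11.02 in siControl and 10.94, 11.03 and 11.02 in siRND3 cells at 24 h. The main TPM4 probe read 12.31, 12.34 and 12.36 in siControl and 12.23, 12.26 and 12.44 in siRND3 cells. The groups overlapped for both genes. The differences of their 4 probes lay between -0.04 and 0.04, and the 95% intervals of the main probes ran from -0.14 to 0.21 for TPM2 and from -0.23 to 0.17 for TPM4. The sign of the TPM4 differences turned with scaling to the 75th percentile (0.02 and 0.03).

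Neither actin passed the test at 24 h. ACTA2, the smooth muscle alpha-actin, read 9.30, 9.27 and 9.34 in siControl and 9.0, 9.09 and 9.08 in siRND3 cells at 24 h. Its groups did not overlap, and the difference of -0.25 (SE 0.0701) missed the threshold with an adjusted p of 0.0721. It passed after normexp background correction (adjusted p = 0.0363) and with probes averaged per gene (adjusted p = 0.0341). ACTA2 has 1 probe, so averaging left its difference at -0.25 and changed only the fit and adjustment around it. The fit of all 8 arrays, which pools 24 h and 48 h, gave -0.30 (adjusted p = 0.0325). ACTB, the cytoplasmic beta-actin, read 17.61, 17.57 and 17.54 in siControl and 17.60, 17.68 and 17.67 in siRND3 cells on its main probe. Both ACTB probes had overlapping groups and differences of 0.07 (adjusted p = 0.542) and 0.09 (adjusted p = 0.563). The 95% interval of the main probe was -0.09 to 0.24. Probe sequences were not used here, and cross-hybridisation between the closely similar actin or tropomyosin genes was not tested.

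SRF itself read 5.83, 5.64 and 6.17 in siControl and 5.48, 5.65 and 5.66 in siRND3 cells at 24 h. The groups overlapped through replicate 2 of siControl. The difference was -0.28 (SE 0.145, adjusted p = 0.263), with a 95% interval of -0.63 to 0.07, the widest of the 10 main probes. It did not pass under any of the alternatives tried.

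CNN1 and TAGLN encode calponin and transgelin, which bind actin filaments in contractile cells. CNN1 read 7.95, 8.0 and 8.06 in siControl and 8.11, 8.19 and 8.24 in siRND3 cells at 24 h. All 3 siRND3 arrays were above all 3 siControl arrays, but the difference of 0.18 (SE 0.0740) had an adjusted p of 0.178. The main TAGLN probe read 6.44, 6.82 and 6.63 in siControl and 6.88, 6.86 and 6.5 in siRND3 cells, and its groups overlapped. The pair of TAGLN probes, both annotated to NM_001001522, had differences of opposite sign, 0.11 (adjusted p = 0.655) and -0.09 (adjusted p = 0.734).

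FLNA encodes filamin A, which crosslinks actin filaments into networks. Its main probe read 14.13, 14.07 and 14.07 in siControl and 13.77, 14.14 and 14.04 in siRND3 cells at 24 h, and only replicate 1 of siRND3 stood apart. The difference was -0.11 (adjusted p = 0.575), and it was 0.00121 without that array. The second FLNA probe, for NM_001456, had groups that did not overlap at a difference of -0.09 (adjusted p = 0.424).

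**Figure D2:**
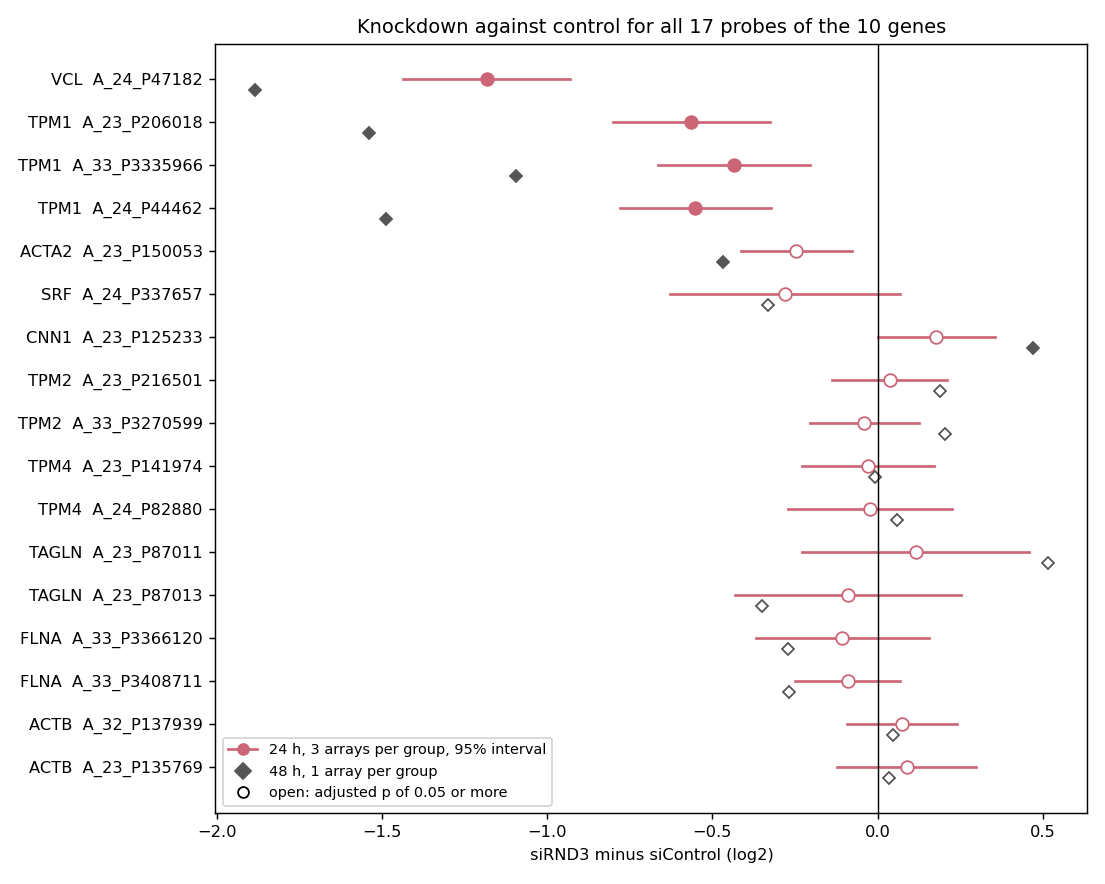
Difference between siRND3 and siControl (log2) for all 17 probes of the 10 genes. Circles with 95% intervals are 24 h (3 arrays per group), diamonds are 48 h (1 array per group), and filled symbols passed an adjusted p of 0.05. The VCL probe lay at -1.18 and -1.88 and the main TPM1 probe at -0.56 and -1.54, and ACTA2 and CNN1 passed at 48 h but not at 24 h.

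At 48 h, TPM1, VCL and ACTA2 were lower and CNN1 was higher in siRND3 cells. Because there was 1 array per group, the spread came from the arrays at 24 h in a limma model with 4 groups, and the single arrays were assumed to vary like them. In that model 5 of the 17 probes were called lower and 1 higher, where 9.19% and 9.77% of all probes were. The median over the 10 main probes was -0.14. Over the main probes of all genes tested it was 0.06, and over all probes tested 0.05. The main TPM1 probe read 12.17 in siControl and 10.63 in siRND3 cells, which left 34.4% of the control signal (difference -1.54, SE 0.172, adjusted p = 0.00202). The other TPM1 probes had differences of -1.09 (adjusted p = 0.00621) and -1.49 (adjusted p = 0.00201). VCL had a difference of -1.88 (SE 0.183, adjusted p = 0.00126). The calls of VCL and of the main TPM1 probe held with each array at 24 h left out.

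Several marker genes of the cells differed between the arrays at 48 h as well. PECAM1 had -3.44 (adjusted p = 0.00117), SNAP25 -1.10 (adjusted p = 0.00279), SYT1 -0.72 (adjusted p = 0.0290), SLC1A3 -0.88 (adjusted p = 0.00498) and RGS5, a pericyte marker, -1.08 (adjusted p = 0.0444). NES had 2.10 (adjusted p = 0.000797) and CD68 0.76 (adjusted p = 0.0184). The summed signal was 2014 in siControl and 955 in siRND3 cells for the neuronal markers, 323 and 261 for the endothelial, 4122 and 6887 for the blood, and 2821 and 3397 for the smooth muscle and pericyte markers. These sums follow the brighter genes, SNAP25 for the neuronal and CD68 for the blood markers, and PTPRC had -0.46. The part of these marker shifts in the 48 h results was not tested.

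ACTA2 read 8.54 in siControl and 8.07 in siRND3 cells at 48 h (difference -0.47, adjusted p = 0.0411). CNN1 read 7.78 and 8.25 (difference 0.47, adjusted p = 0.0476). The ACTA2 call was lost without any of the siControl replicates or without replicate 3 of siRND3, where its adjusted p reached 0.0899. The CNN1 call was lost with any array left out, where its adjusted p reached 0.0936. The TAGLN probes again pointed in opposite directions (0.51 and -0.35), with adjusted p-values of 0.223 and 0.420. SRF had a difference of -0.33 (adjusted p = 0.457), and those of FLNA, ACTB, TPM2 and TPM4 lay between -0.27 and 0.20 without passing.

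The difference between the knockdown effects at 48 h and 24 h was tested as an interaction. None of the 17 probes passed, where 2.73% of all probes did, and 4 had an unadjusted p under 0.05 (18.4% of all probes), namely the VCL probe and the 3 TPM1 probes. The effect on the main TPM1 probe was larger at 48 h by -0.98 (SE 0.198, adjusted p = 0.0593) and that on VCL by -0.70 (SE 0.211, adjusted p = 0.145). The VCL value passed after normexp background correction (-0.67, adjusted p = 0.0457). The TPM1 value passed after normexp background correction, with the authors' deposited values and with a stricter filter on dim probes (adjusted p = 0.0106, 0.0197 and 0.0477). The effect on RND3 itself differed by 0.01 between the times (adjusted p = 0.992).

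Several of the genes read lower on the single arrays at 48 h than at 24 h. These comparisons share arrays with those above, and in each arm time cannot be told apart from the 1 array at 48 h. Over all probes fewer rose than fell in each arm, so a lack of rises among the 17 is not read as particular to them. From 24 h to 48 h in siControl cells, 3 of the 17 probes fell and none rose, where 2.73% of all probes fell. They were the ACTA2 probe (difference 48 h minus 24 h -0.77, adjusted p = 0.0177) and both TPM2 probes (-0.60 and -0.72, adjusted p = 0.0344 and 0.0195). All 3 calls were lost without any of the siControl replicates, and that of the main TPM2 probe also without replicate 2 or 3 of siRND3. In siRND3 cells 8 of the 17 probes fell and none rose, where 6.45% of all probes fell. The main TPM1 probe fell by 1.20 (adjusted p = 0.00639) and ACTA2 by 0.99 (adjusted p = 0.00451), and both calls held with each array left out. The other called probes were the remaining TPM1 probes, both TPM2 probes, the dimmer TAGLN probe (-1.13) and the FLNA probe for NM_001456 (-0.44). The main probes of TAGLN and FLNA had 0.12 and -0.17 in siRND3 cells and were not called. The count of 8 fell to 4 or 5 without siControl replicate 1, 2 or 3 or siRND3 replicate 2 or 3. TPM1 changed by -0.22 in siControl cells over the same time (adjusted p = 0.410). VCL moved by 0.35 in siControl and by -0.36 in siRND3 cells, and neither passed (adjusted p = 0.244 and 0.193).

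**Figure D3:**
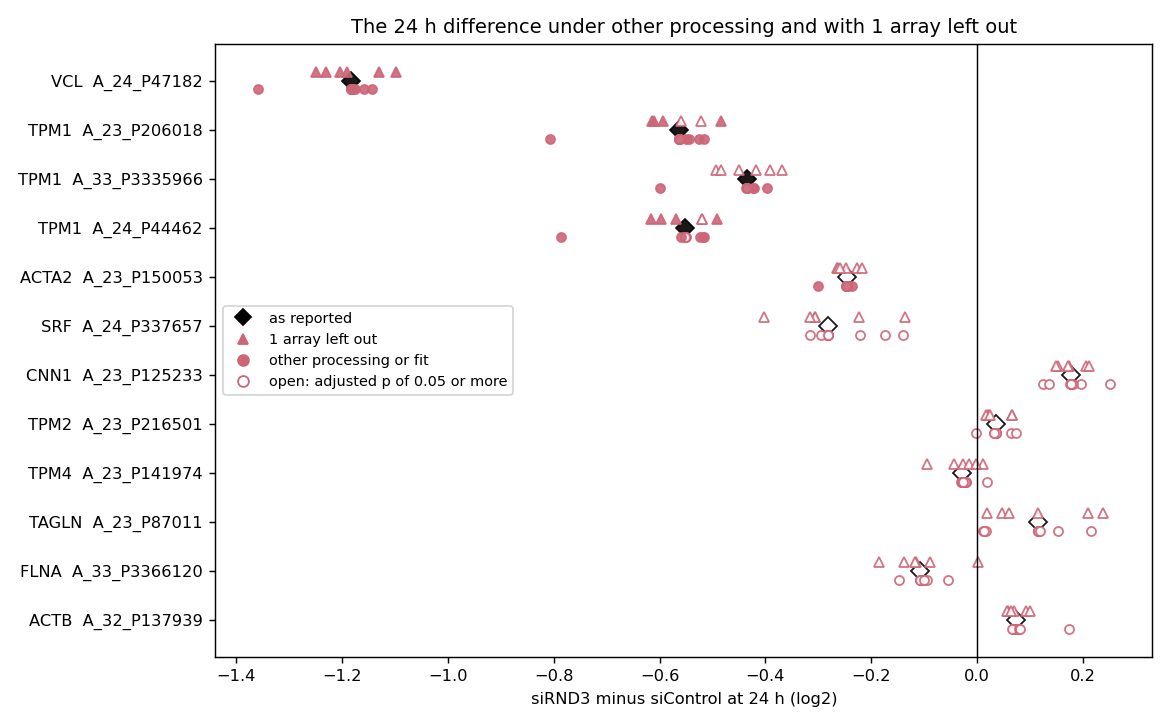
The 24 h difference (log2, siRND3 minus siControl) of each main probe and of all 3 TPM1 probes, as reported (diamonds), with 1 array left out (triangles) and under other processing or fits (circles), filled where the adjusted p was under 0.05. VCL stayed filled throughout, the TPM1 triangles were partly open, and TPM4 lay on both sides of 0.

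The rest of the pathway was read from 8 lists, which together named 93 genes including the 10, of which 83 were tested. Of these, 11 fell and 3 rose at 24 h, where 9.26% of all genes fell and 7.16% rose. Without the 10 genes, 9 of 73 fell, 3 rose and 61 were not called. The median over the 83 genes was -0.05 and over all genes 0.04. The count of 14 called genes was 9 without replicate 1 and 8 without replicate 3 of siControl.

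Among SRF and its regulators none of the 8 genes tested was called at 24 h, where 9.26% of all genes fell and 7.16% rose. The coactivators MRTFA and MRTFB had differences of 0.08 (adjusted p = 0.636) and 0.22 (adjusted p = 0.137), and the ternary complex factor ELK4 had 0.31 (adjusted p = 0.0996). FHL2, a LIM protein that binds SRF, had -0.32 at 24 h (adjusted p = 0.0713) and -0.67 at 48 h (adjusted p = 0.0294). At 48 h, with 1 array per group, MRTFA had 0.53, MRTFB -0.16 and ELK4 -0.35. The coactivator MYOCD was detected on none of the 8 arrays. Of the other actins, ACTG1 had -0.15 and ACTG2 0.22 at 24 h, and neither passed.

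In the focal adhesion list 6 of 16 genes fell and none rose, where 9.26% of all genes fell and 7.16% rose. Without VCL 5 of 15 fell. The list median was -0.22. Beside VCL these were FERMT2 (kindlin-2, an integrin activator, -1.28, SE 0.0902, adjusted p = 0.000619), PARVA (alpha-parvin, which binds integrin-linked kinase, -1.07, SE 0.0748, adjusted p = 0.000608), PDLIM5, LIMA1 (-0.76, adjusted p = 0.00509) and VASP (-0.58, adjusted p = 0.00685), which promotes filament growth. For PDLIM5, 1 of 3 probes passed (-0.79, adjusted p = 0.00196), and another read 0.59 without passing. FERMT2 fell on both of its probes. FERMT2, PARVA, LIMA1, VASP and PDLIM5 kept their calls with each array left out. TLN1, ZYX, PXN and ILK, which encode talin, zyxin, paxillin and integrin-linked kinase, did not pass (-0.03, -0.20, -0.24 and 0.17).

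Of 21 actin turnover genes 3 fell and none rose, where 9.26% of all genes fell and 7.16% rose. The list median was -0.04. All 3 encode parts of the Arp2/3 complex, which starts branched filaments. ARPC5 fell by 1.46 on the log2 scale (SE 0.0845, adjusted p = 0.000348) and passed on both probes. ACTR2 had a difference of -0.81 (adjusted p = 0.0229) and ARPC1A one of -0.50 (adjusted p = 0.0137). The other tested subunits ARPC1B, ARPC2, ARPC4 and ACTR3 lay between -0.13 and 0.14 and did not pass. The ARPC5 call held with each array left out. That of ARPC1A was lost without replicate 1 or 3 of siControl, and that of ACTR2 held only without replicate 1 of siRND3 among the 6 arrays. The cofilin and profilin genes CFL1 and PFN1 had differences of -0.03 and 0.09.

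The remaining lists held at most 1 call in each direction, where 9.26% of all genes fell and 7.16% rose. Of 10 myosin II and contractility genes none was called, and MYL9, MYH9 and CALD1 had -0.09, -0.13 and -0.14 (list median -0.06). Among 10 tropomyosins, calponins and transgelins, TPM1 fell and TPM3 rose, the latter on 1 of 6 probes (0.53), while its main probe had 0.13 (adjusted p = 0.371). Among 7 filamins and alpha-actinins ACTN2 rose by 0.68 (adjusted p = 0.0168), at a low signal of 3.19 ± 0.21 in siControl cells, and ACTN1 had -0.33 at 24 h (adjusted p = 0.0709) and -1.11 at 48 h (adjusted p = 0.00545). Of 7 immediate early genes, which are ternary complex factor targets, EGR2 rose by 0.53 (adjusted p = 0.00712), EGR1 fell by 0.48 (adjusted p = 0.0433) and FOS had -0.04 (adjusted p = 0.833). At 48 h (1 array per group) EGR2 had 0.89, IER2 0.52, JUNB 0.39, EGR1 0.14, FOSB -0.12, MCL1 -0.24 and FOS -0.83. MYLK, of the myosin II list, had 0.67 at 48 h. The 48 h list medians were 0.09 (myosin II), 0.09 (tropomyosins), -0.27 (filamins) and 0.14 (immediate early), against 0.06 over all genes. The 24 h calls of TPM3 and EGR1 held only without replicate 1 of siRND3 among the 6 arrays. That of ACTN2 was lost without replicate 3 of siControl or replicate 2 of siRND3. After normexp background correction the TPM3 and ACTN2 probes had 0.15 and 0.07 (adjusted p = 0.155 and 0.458), and neither passed with the authors' deposited values.

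**Figure D4:**
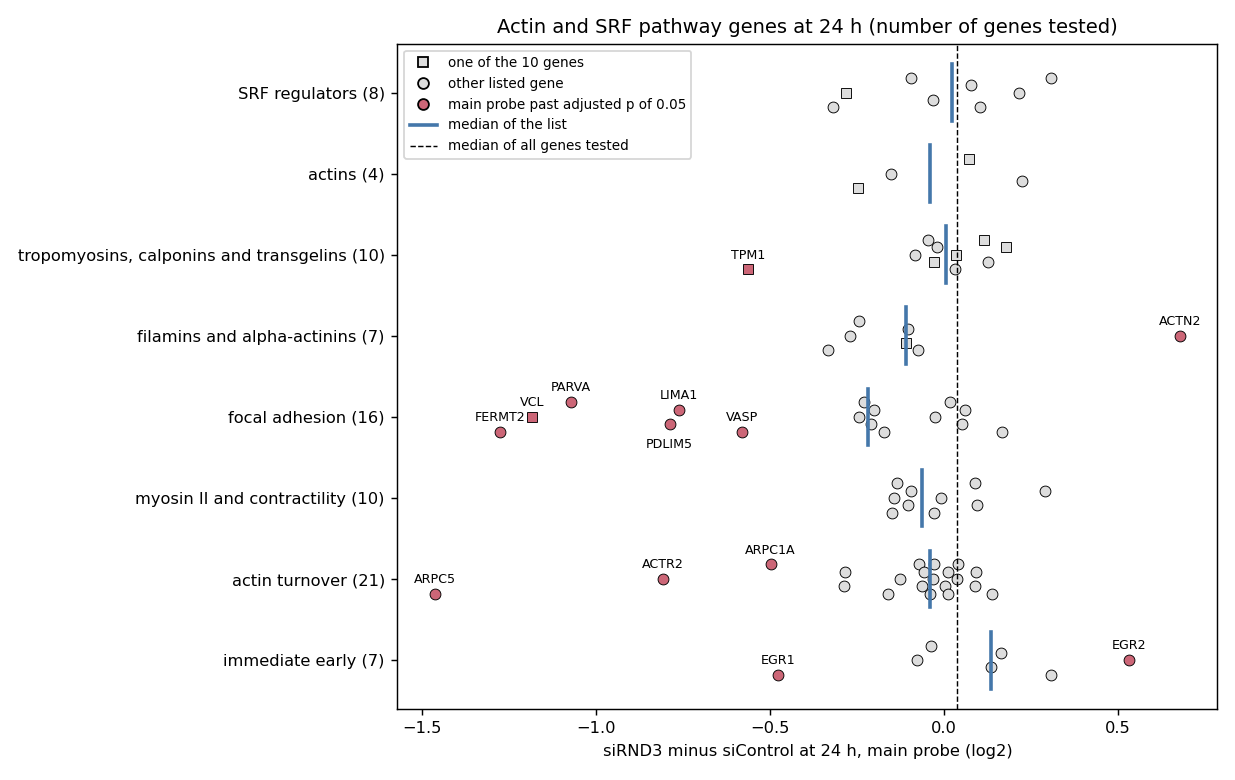
Difference between siRND3 and siControl at 24 h (log2, main probe) for the tested genes of the 8 lists, with the number tested in brackets. Squares are the 10 genes, red symbols passed an adjusted p of 0.05, blue bars are list medians and the dashed line is the median of all genes (0.04). The focal adhesion median lay at -0.22, and ARPC5 at -1.46 was the lowest point.

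Genes with the most similar pattern to VCL and to SRF were sought among 14790 genes, by the root mean square difference of log2 values centred on each gene's mean over the 8 arrays. For VCL they were TNPO1 (0.0961), IL1A (0.105), TLR4 (0.107), TP53INP1 (0.111) and LGR4 (0.111), with differences of -1.23 to -1.20 at 24 h. For SRF they were SLC25A38 (0.0924), CCDC116 (0.0974), PPFIA3 (0.102), TAF5 (0.107) and TYSND1 (0.107). None of the other 9 genes was among the 5 nearest to either. These are descriptions over arrays that share the treatment contrast.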

How the data were processed

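RNA of 8 samples was measured on 8 arrays, grouped by the treatment and time in the labels. The authors ran Agilent Feature Extraction 10.7.3.1, per the file headers. The processed spot intensity in the deposited files is linear and, per the file headers, was corrected for background array by array. A table of log2 values was deposited too, and its normalisation is given in the methods as quantile. Their rank order within each array equalled that of the spot median (lowest Spearman correlation 1.0), and their column medians were 6.82 to 6.84. All columns belonged to samples of the series.

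Here, processed intensities of all 8 arrays were put on the log2 scale and quantile-normalised together, without control spots (4259 of 62976). Outlier spots (0.364% to 0.530% of the remaining 58717) were left out, and spots of a probe were averaged to give 42405 probes. No spot was saturated. A probe counted as well above background on an array when at least 50% of its spots were so marked, and testing required this on every array of the siControl or the siRND3 group at 24 h. Names came from transcript accessions through RefSeq of GRCh38.p14 (25422 probes, 60.0%, matched). The arrays were annotated on hg19, so coordinates are given only for RefSeq windows. The number of arrays limits the precision.

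Groups at 24 h were compared with limma 3.58.1 in R 4.3.3 on 6 arrays without covariates. Other comparisons used a 4-group limma model on the same probes. P-values were two-sided and adjusted by Benjamini-Hochberg over all probes tested. The scripts were tested on simulated data. Settings tried were scaling to the 75th percentile, normexp with an offset of 50 (planned on the spot mean, run on the spot median, the column in the files), the authors' values, normalisation of the 6 arrays at 24 h, 2 other filters, significance analysis of microarrays (SAM, over 20 assignments, the test the methods state), the replicate number as a block, a fit of all 8 arrays on treatment plus time, array weights, gene means, and each of the 6 arrays left out. Named were RND3, the 10 genes with every probe, up to 4 called genes of each list by size, with genes described for their role beside them, and the 5 genes nearest in pattern to VCL and SRF. The genes named without a call, the markers and the leading uncalled values were picked for their known role or after their values were seen. The members and lists were chosen with earlier results of these data known.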

Additional observations from a re-analysis of the deposited data

How the results depend on the processing

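VCL kept its call under all 17 alternatives, with differences of -1.36 to -1.10, and SAM called VCL and all 3 TPM1 probes at 24 h. The main TPM1 probe kept its direction throughout (-0.81 to -0.48). Among these alternatives, the fit of all 8 arrays on treatment plus time pools both times. It takes in the single 48 h arrays, so these ranges are not of 24 h alone. With 1 array left out, 1 to 3 of the 17 probes passed at 24 h, 8 to 14 listed genes, 4 to 5 probes at 48 h, 0 for the interaction, 0 to 3 for time in siControl and 4 to 6 for time in siRND3 cells. The interaction count of 0 became 3 after normexp correction, 2 with the authors' deposited values and 2 with probes well above background on all 6 arrays. Over all probes the call count at 24 h ran from 1379 to 4672 around 3350, with that pooled fit among the settings. The interaction count ran from 7 to 1300 around 785. The time counts ran from 73 to 1565 around 1023 in siControl and from 1446 to 3342 around 2598 in siRND3 cells.

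Deviations of same-numbered arrays from their group means correlated at 0.00, -0.01 and 0.13, and those of differently numbered arrays at -0.13 to 0.11. Deviations from a mean of 3 arrays are tied to each other, so these values cannot settle whether the replicate numbers pair the arrays. With the replicate number as a block, 1 of the 17 probes (VCL) and 8 listed genes passed at 24 h, and 1651 probes in all.

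Differences near 0 that did not pass changed sign. With scaling to the 75th percentile, the TPM4 probes had 0.0188 and 0.0269 at 24 h, and the main one 0.0112 at 48 h and -0.00764 in the interaction. The second TPM2 probe had 0.0202 with all 8 arrays, a fit that pools both times, and the main one -0.00239 at 24 h with gene means. In the interaction, TPM4 had -0.0182 after normexp and -0.0176 with the authors' values, and SRF 0.0283 after normexp. Over time in siControl cells ACTB had 0.0149 and FLNA 0.0197 with scaling to the 75th percentile. With 1 array left out, TPM4 ran from -0.0945 to 0.0115 and from -0.106 to 0.0298 on its probes at 24 h and from -0.0203 to 0.0857 in the interaction, FLNA from -0.186 to 0.00121 at 24 h and from -0.0160 to 0.0129 over time in siControl cells, and SRF from -0.197 to 0.0701 in the interaction. CNN1 at 48 h did not pass with scaling to the 75th percentile, after normexp or with the authors' values (adjusted p = 0.0596, 0.0574 and 0.0785). The cause of these changes was not tested.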
